A study of Homo sapiens with 4 samples.

Results

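The accessible chromatin of the MYC family genes MYC, MYCN and MYCL was examined over each gene body and 500 kb on either side, in C4-2B cells and in C4-2BER cells. All accessible intervals of both deposited ATAC-seq peak lists that fell in these 3 windows were taken, which gave 386 of 268404 intervals, 223 of 149676 in C4-2B and 163 of 118728 in C4-2BER. C4-2B is a human prostate adenocarcinoma line. C4-2BER is its enzalutamide-resistant derivative, labelled C4-2B_Enza_Resist, which the study obtained by keeping C4-2B in 10 µM of this antiandrogen and describes as neuroendocrine-like. Resistance and long culture in the drug cannot be told apart in this design. The 2 libraries of a line had been pooled for peak calling, so each line gave 1 list and no difference between the lines has a replicate check or a test. Promoters of 2 prostate genes (KLK3 and HOXB13) and of 4 neuroendocrine genes (SYP, CHGA, NCAM1 and ENO2) held an interval in both lists. With reads scaled for depth as described below, the C4-2BER to C4-2B ratio was 0.315 at KLK3 and 1.17 at HOXB13. It was 2.94 at NCAM1, between summits 1897 bp apart, 1.56 at ENO2, 1.00 at CHGA and 0.975 at SYP, so the markers of neither kind moved together.

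MYC, MYCN and MYCL encode basic helix-loop-helix leucine zipper transcription factors that pair with MAX and bind E-box DNA to drive cell growth and proliferation. MYC is under the control of many distal enhancers that lie in a wide gene-poor region, in part inside the noncoding gene PVT1, and its flanks are known for prostate cancer risk and for androgen-linked enhancers. MYCN is active in the developing nervous system and is known as a driver of neuroendocrine prostate cancer, and MYCL was first described in small cell lung cancer. ATAC-seq marks open chromatin by the insertion of a transposase, and an interval is a stretch where insertions rise above the local background.

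The sequences below come from MYCN and MYCL and belong to the sites that the results turn on. They are the MYCN promoter, the shared distal MYCN site with the lowest C4-2BER to C4-2B ratio, the strongest distal sites found in 1 line only at MYCN, and the C4-2BER-only sites inside MYCL and inside its neighbour HEYL. Distal sites are shown as 100 bp on either side of the summit, in hg38. The MYCN promoter is the 250 bases before the start in the RefSeq promoter table (GRCh38.p14), and it matched hg38. Capitals mark matches on either strand, either AGATAA for the GATA family or, for forkhead factors, TGTTTAC and its variant spelling TGTTTGC.
MYCN promoter, chr2:15940300-15940549, + strand: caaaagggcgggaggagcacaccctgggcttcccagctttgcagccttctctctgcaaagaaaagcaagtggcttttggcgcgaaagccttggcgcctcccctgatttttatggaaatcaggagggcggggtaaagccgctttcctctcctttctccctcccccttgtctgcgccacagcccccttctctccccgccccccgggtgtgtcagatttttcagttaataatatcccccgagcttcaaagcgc
MYCN shared site in GACAT3, chr2:16079695-16079895, + strand: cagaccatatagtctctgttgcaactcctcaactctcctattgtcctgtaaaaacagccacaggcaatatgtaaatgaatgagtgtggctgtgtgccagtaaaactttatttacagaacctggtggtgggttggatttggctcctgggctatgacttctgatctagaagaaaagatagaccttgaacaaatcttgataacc
MYCN C4-2B-only site, chr2:15766463-15766663, + strand: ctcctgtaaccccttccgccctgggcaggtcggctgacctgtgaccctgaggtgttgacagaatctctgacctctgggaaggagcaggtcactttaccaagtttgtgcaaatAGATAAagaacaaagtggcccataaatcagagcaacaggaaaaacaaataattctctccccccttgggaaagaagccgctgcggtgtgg
MYCN C4-2BER-only site, chr2:16143042-16143242, + strand: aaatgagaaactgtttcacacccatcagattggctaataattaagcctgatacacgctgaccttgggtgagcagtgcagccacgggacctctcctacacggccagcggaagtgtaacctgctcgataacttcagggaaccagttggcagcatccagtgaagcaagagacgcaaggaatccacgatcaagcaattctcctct
MYCL C4-2BER-only site in the gene, chr1:39899076-39899276, + strand: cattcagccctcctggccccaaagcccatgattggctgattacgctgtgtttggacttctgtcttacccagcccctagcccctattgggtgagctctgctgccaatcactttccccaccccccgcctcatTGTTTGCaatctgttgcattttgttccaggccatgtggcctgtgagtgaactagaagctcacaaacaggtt
MYCL C4-2BER-only site in HEYL, chr1:39632951-39633151, + strand: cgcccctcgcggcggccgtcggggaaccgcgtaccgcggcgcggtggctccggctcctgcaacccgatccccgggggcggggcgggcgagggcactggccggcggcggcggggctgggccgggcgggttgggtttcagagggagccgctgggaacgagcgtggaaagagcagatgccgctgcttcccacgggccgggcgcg
The MYCN promoter window overlaps an exon of the antisense noncoding gene MYCNOS and has 57.2% GC. The C4-2BER-only site in HEYL, an intronic stretch, has 79.1% GC, the highest among these windows, and holds none of the motifs searched. The C4-2BER-only site in MYCL holds 1 forkhead match and overlaps an exon of the noncoding gene MYCL-AS1. The C4-2B-only site at MYCN holds 1 GATA match. A match is a stretch of letters and does not show that a factor was bound.

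To compare the lines, an interval was called shared when at least 1 bp of it lay in an interval of the other line and line-only otherwise, and its place was taken from its summit. A promoter interval had its summit within 2000 bp of a start site (TSS) of a protein-coding gene in GENCODE release 44, and all others were called distal. The reads at each summit and its local background were recovered from the deposited fold and −log10 p. The floor is the lowest background of a list, 2.24 reads per 200 bp in C4-2B against 1.87 in C4-2BER, so that C4-2B was 1.20 times deeper. Reads divided by the floor of their own list are called scaled reads, and the C4-2BER to C4-2B ratio of scaled reads is given for shared pairs with an exact 95% interval that covers counting error only. Rank percentiles place an interval by −log10 p within its own list, where 100 is the strongest. Over the whole lists, 37.7% of C4-2B intervals were C4-2B-only and 20.8% of C4-2BER intervals were C4-2BER-only. These shares were 41.9% and 22.4% among distal intervals. Of 91274 shared pairs, 13.8% had a ratio of at most 0.5 and 2.7% had a ratio of at least 2, with a median of 0.828 for distal and 1.08 for promoter pairs.

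MYC had fewer accessible intervals in C4-2BER than in C4-2B, and those that were kept were mostly weaker, while its promoter was not. MYC (ENSG00000136997.22) lies at chr8:127735434-127742951 on the + strand, and its window of 1008 kb held 88 intervals in C4-2B against 53 in C4-2BER. Of the C4-2B intervals, 42 (47.7%, Wilson 95% interval 37.6 to 58.0) were C4-2B-only. Of the C4-2BER intervals, 5 (9.43%, 4.10 to 20.3) were C4-2BER-only. The intervals covered 47535 bp in C4-2B and 27325 bp in C4-2BER. The whole-list share of 37.7% lay at the lower bound of the first interval, and 20.8% lay just above the upper bound of the second. Among distal intervals the shares were 48.8% (38.4 to 59.3) and 10.0% (4.35 to 21.4). Of the distal shares over the whole lists, 41.9% lay inside the first of these intervals, and 22.4% lay just above the second. Intervals with a −log10 q of at least 10 numbered 59 in C4-2B, of which 19 were C4-2B-only, and 27 in C4-2BER, of which 0 were C4-2BER-only. These shares were 32.2% and 0%, against 22.2% and 7.31% of such intervals over the whole lists. The top 10% of the own list held 9 of the C4-2B intervals and 1 of the C4-2BER intervals at MYC. With the C4-2B list shortened to the length of the C4-2BER list, MYC held 65 intervals in C4-2B against 53 in C4-2BER. The line-only shares were then 35.4% and 15.1%, against 29.1% and 27.7% over the whole lists.

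MYCN also had fewer listed sites in C4-2BER, with line-only sites in both lines, but this order depended on list length. MYCN (ENSG00000134323.13) lies at chr2:15940550-15947007 on the + strand, and its window held 44 intervals in C4-2B against 34 in C4-2BER. C4-2B-only intervals numbered 22 (50.0%, 35.8 to 64.2) and C4-2BER-only intervals 12 (35.3%, 21.5 to 52.1). When the C4-2B list was shortened to the length of the C4-2BER list, the order turned, with 32 intervals in C4-2B and 34 in C4-2BER and line-only shares of 34.4% and 38.2%. The first interval held the whole-list share of 37.7%, and the second began just above 20.8%. With only intervals of a −log10 q of 5 or more, the C4-2BER-only share at MYCN was 18.2%, against 17.4% over the whole list. Of the line-only sites, 5 of the 22 and 2 of the 12 had a −log10 q of 10 or more, against 37.5% and 18.9% of all line-only intervals of the lists. The intervals covered 19978 bp and 15046 bp. MYCN had the fewest intervals of the 3 genes in both lines, with 4.37 per 100 kb in C4-2B against 3.38 in C4-2BER.

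MYCL had the highest ratio of C4-2BER to C4-2B interval counts of the 3 genes, 0.835. MYCL (ENSG00000116990.12) lies at chr1:39895428-39902256 on the − strand, in a gene-rich region, and its window held 91 intervals in C4-2B against 76 in C4-2BER. C4-2B-only intervals numbered 26 (28.6%, 20.3 to 38.6) and C4-2BER-only intervals 13 (17.1%, 10.3 to 27.1). Both whole-list shares lay inside these intervals. Of the 26 C4-2B-only intervals, 13 had a −log10 q of 10 or more, as had 5 of the 13 C4-2BER-only ones. Over the whole lists, 37.5% and 18.9% of line-only intervals did.

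**Figure D1:**
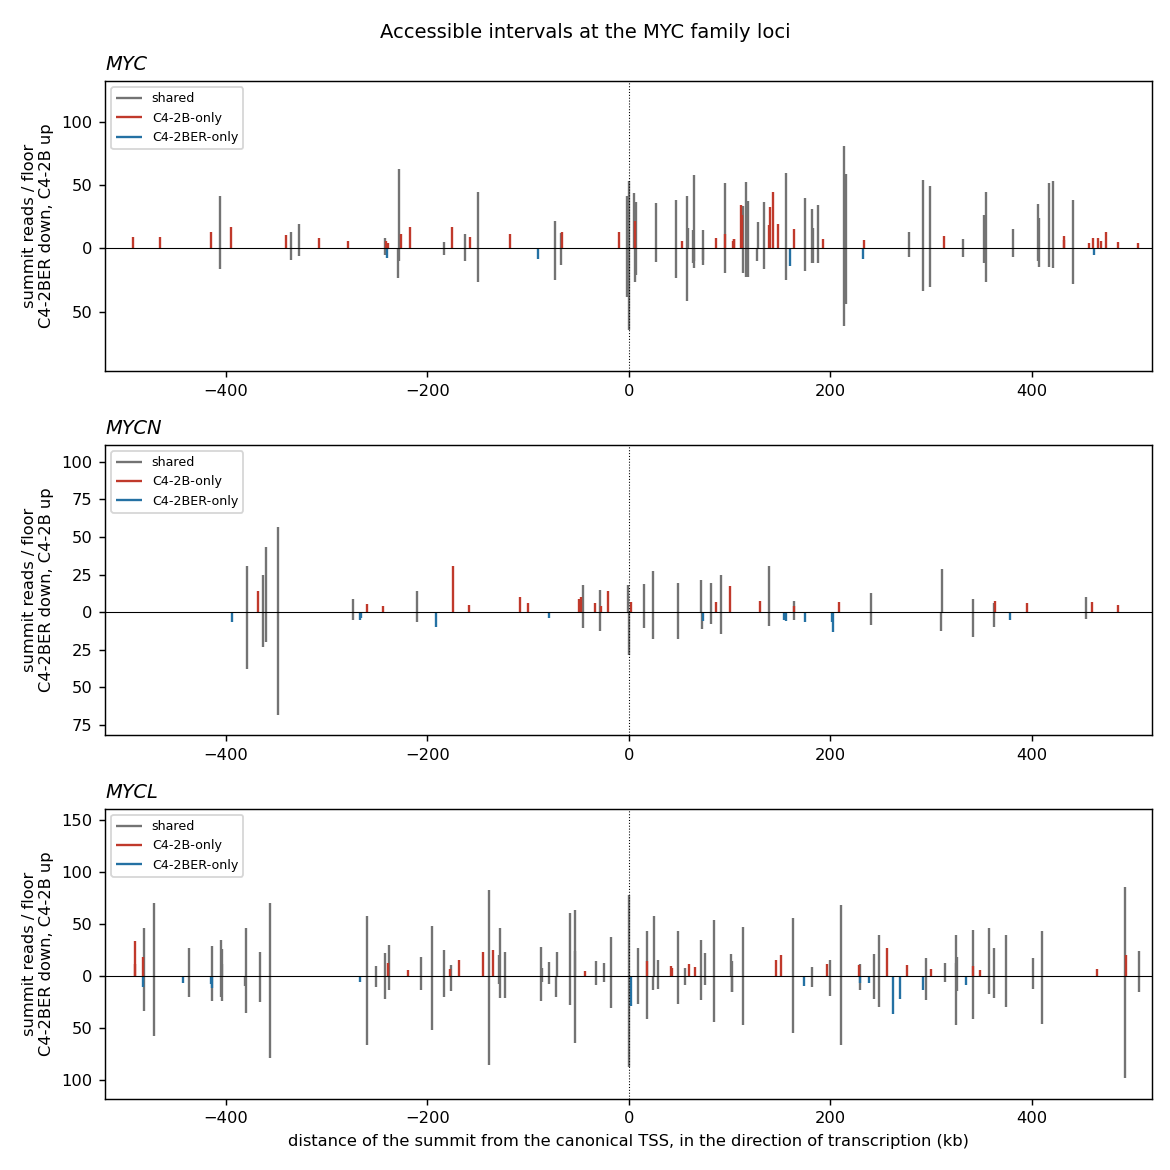
Summits at MYC, MYCN and MYCL by distance from the canonical TSS in kb along the direction of transcription, with scaled reads (summit reads over the floor) of C4-2B drawn up and of C4-2BER drawn down. Grey lines are shared intervals, red lines C4-2B-only and blue lines C4-2BER-only; at MYC 42 lines are red and 5 are blue.

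These windows were set beside windows of the same build around protein-coding genes, each with 500 kb on either side of the gene. A window needed at least 10 intervals to be used for a share. Among 19931 such windows, the median C4-2B-only share was 33.3%, and 94.6% of windows had a share no higher than that of MYC. For MYCN the percentile was 97.2 and for MYCL 29.2. The C4-2BER-only share, over 19879 windows, had a median of 17.9%, and MYC stood at percentile 5.83, MYCN at 97.2 and MYCL at 45.3. The C4-2BER to C4-2B ratio of interval counts had a median of 0.824. At MYC this ratio was 0.602, at percentile 2.07. At MYCN it was 0.773 and at MYCL 0.835, at percentiles 30.8 and 54.2. Windows of neighbouring genes overlap and share intervals, so these percentiles are descriptions. Chromosome 8 as a whole had a C4-2B-only share of 40.1% and a C4-2BER-only share of 19.4%, against 47.7% and 9.43% in the MYC window.

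The promoters of the 3 genes were open in both lines, as were those of 77.7% of 19689 protein-coding genes. The MYC promoter interval spanned chr8:127735111-127736420 in C4-2B and chr8:127735005-127736399 in C4-2BER and covered the canonical TSS in both. Its summit held 119 reads in C4-2B against 121 in C4-2BER, a ratio of 1.22 (0.94 to 1.58). The counting interval held 1, and it held the median promoter ratio over all genes of 1.10 (quartiles 1.00 and 1.20). By −log10 p the interval stood at percentile 73.9 in C4-2B against 85.6 in C4-2BER. By fold it stood at percentiles 18.9 and 33.8, with a local background of 12.6 and 13.0 times the floor. A further interval 2.04 kb before the canonical TSS held 93 and 71 reads, a ratio of 0.91 (0.66 to 1.26).

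Inside MYC, the sites toward the end of the gene were weaker in C4-2BER. The interval at chr8:127741613-127742475, with its summit in an exon 5648 bp after the TSS, held 98 reads in C4-2B against 49 in C4-2BER, a ratio of 0.60 (0.42 to 0.85). Next to it, the interval at chr8:127742633-127742860 was C4-2B-only with 48 reads, but it was among the weak sites of its list. Its percentile was 8.40 and its −log10 q 4.27, in a local background of 10.1 times the floor. It lay between the C4-2BER intervals chr8:127741641-127742506 and chr8:127743061-127743524. Just past the gene, the interval at chr8:127742981-127743542 held 82 and 39 reads, a ratio of 0.57 (0.38 to 0.84). The promoter thus held about equal reads while its nearest downstream sites held fewer in C4-2BER.

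The MYCN promoter was the one most changed in shape. In C4-2B the interval spanned chr2:15939536-15940169, with 1 summit of 40 reads 722 bp before the TSS, and it did not reach the TSS. In C4-2BER it spanned chr2:15939644-15940854 with 4 summits, covered the TSS, and its highest summit of 53 reads lay 154 bp before the TSS, within the promoter sequence printed above. The ratio was 1.59 (1.03 to 2.45), the local background rose from 1.88 to 3.79 times the floor, and the rank by −log10 p went from percentile 63.1 to 75.2. Ranked by fold, the direction turned, from percentile 62.4 to 59.4, as the fold itself went from 7.88 to 6.68. Because the summits lie 568 bp apart, this ratio compares different positions of the promoter. A small interval at chr2:15942346-15942545, 1904 bp after the TSS, was C4-2B-only with 15 reads.

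The MYCL promoter was among the strongest sites of both lists. It spanned chr1:39901343-39902587 in C4-2B with 174 reads and chr1:39901347-39902558 in C4-2BER with 163 reads. The percentiles were 98.1 and 98.3, and the ratio was 1.12 (0.90 to 1.40). The one difference in the gene body was a C4-2BER-only interval at chr1:39899056-39899292, 2741 bp after the TSS in a MYCL intron and at the promoter of the antisense noncoding gene MYCL-AS1. It held 53 reads with a −log10 q of 12.3, in a local background of 7.88 times the floor, and its percentile was 53.2.

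**Figure D2:**
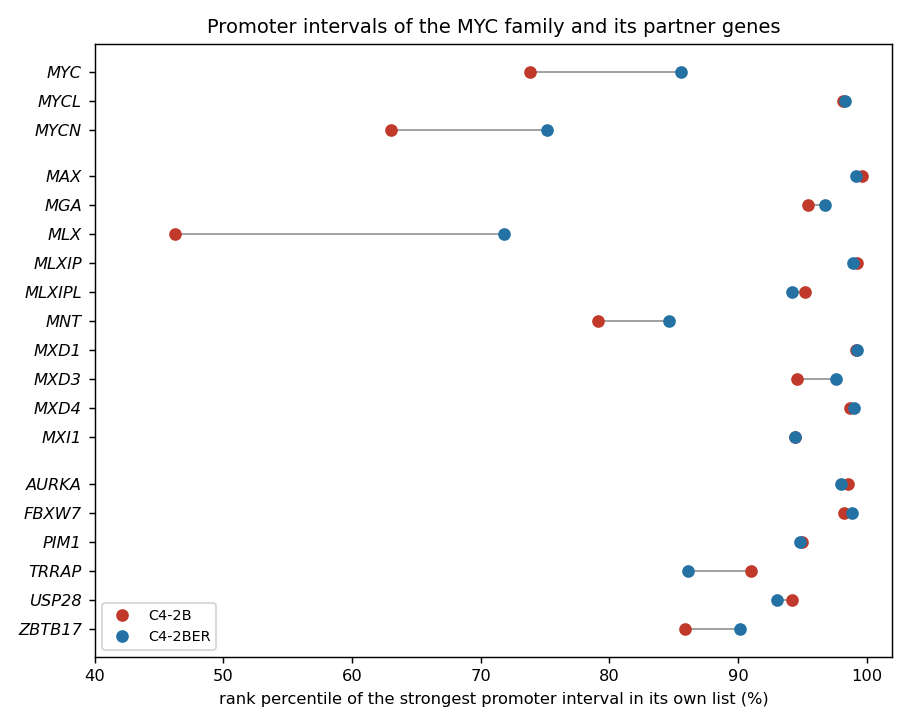
Rank percentile by −log10 p of the strongest promoter interval of each gene in C4-2B (red) and C4-2BER (blue), where a grey line joins the values of a gene. The family is at the top, MAX network genes in the middle and regulators of MYC proteins at the bottom; MYC moved from 73.9 to 85.6, MYCN from 63.1 to 75.2 (by fold, from 62.4 to 59.4) and MYCL from 98.1 to 98.3.

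Distal sites differed more than promoters at all 3 genes, as they did over the whole lists (median ratios of 0.828 and 1.08). At MYC, the 42 shared distal pairs had a median ratio of 0.595 (quartiles 0.421 and 0.718), against 0.828 over the whole lists. The ratio was below 1 in 38 of the 42 pairs (90.5%), against 67.1% of all distal pairs, and at most 0.5 in 17 of them (40.5%), against 16.7%. The counting interval lay wholly below 1 in 28 of the 42 pairs (66.7%), against 25.3% of all distal pairs, and wholly above 1 in 0. The highest ratio at a distal MYC site was 1.15. Rank fell in 35 of the 42 pairs, against 61.5% of all distal pairs.

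At MYCN, the 19 shared distal pairs had a median ratio of 0.577 (quartiles 0.453 and 0.791). It was below 1 in 17 of them (89.5%) and at most 0.5 in 6 (31.6%), against 67.1% and 16.7% of all distal pairs. All 3 promoter pairs of that window, at MYCN, NBAS and DDX1, had ratios above 1, of 1.59, 1.23 and 1.21. At MYCL, the 45 shared distal pairs had a median ratio of 0.756 (quartiles 0.617 and 0.940). Of these, 36 were below 1 (80.0%) and 9 at most 0.5 (20.0%), the latter near the share of 16.7% over all distal pairs. The 17 promoter pairs of MYCL had a median of 1.03. The counting interval lay wholly below 1 in 9 of the 19 distal pairs at MYCN (47.4%) and 12 of the 45 at MYCL (26.7%), against 25.3% of all distal pairs. No pair at the 3 genes reached a ratio of 2, where 2.7% of all pairs did.

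**Figure D3:**
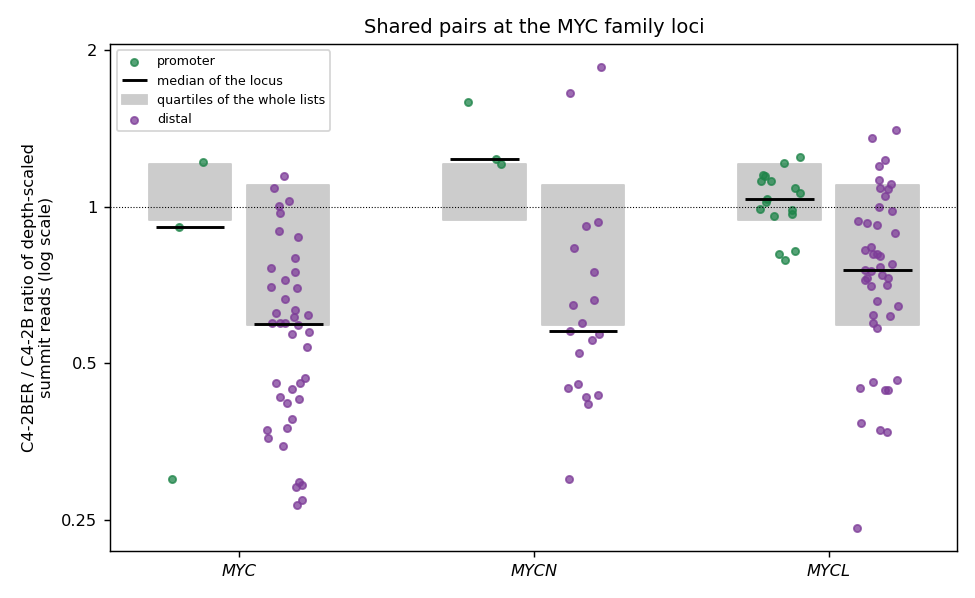
C4-2BER to C4-2B ratio of scaled summit reads for each shared pair at MYC, MYCN and MYCL on a log2 axis, with promoter pairs in green and distal pairs in purple. Black bars are locus medians and grey boxes the quartiles of the whole lists; the distal medians are 0.595, 0.577 and 0.756.

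The strongest distal sites of MYC in C4-2B lay far upstream and inside PVT1, the noncoding gene downstream of MYC. The site 229 kb upstream, chr8:127507309-127508299, ranked first with 140 reads in C4-2B, percentile 96.3, and held 44 in C4-2BER, percentile 75.8, a ratio of 0.376. The site in PVT1 214 kb downstream, chr8:127949115-127950291, held 181 reads in C4-2B against 115 in C4-2BER, a ratio of 0.760, and was the strongest distal site of C4-2BER, at percentile 92.3. Both lines thus had this PVT1 site near the top, but the upstream site only in C4-2B reached the top 10% of its list.

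Other PVT1 sites had lower ratios. The site 95.6 kb downstream held 116 reads in C4-2B against 36 in C4-2BER, a ratio of 0.371. Those at 417 kb and 421 kb held 116 and 119 reads in C4-2B, but 28 and 29 in C4-2BER, with ratios of 0.289 and 0.292. The lowest ratio of the locus was at chr8:127800718-127801838, 64.7 kb downstream, with 130 reads against 29, a ratio of 0.267 (0.172 to 0.402) and percentiles of 88.7 and 38.5.

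A few distal MYC sites kept their level. The site 58.2 kb downstream held 92 reads in C4-2B against 77 in C4-2BER, a ratio of 1.00. The site 73.2 kb upstream held 48 and 46 reads, a ratio of 1.15 (0.75 to 1.75), the highest among distal pairs of the locus. The rank rose most at the site 67.4 kb upstream, from percentile 44.9 to 62.9, with 28 and 24 reads.

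Among C4-2B-only sites of MYC, the strongest was in PVT1 143 kb downstream, chr8:127879389-127879889, with 99 reads at percentile 80.8. Those 176 kb and 394 kb upstream held 38 reads each. The C4-2BER-only sites of MYC were weak. The strongest by rank, 89.9 kb upstream, held 16 reads at percentile 40.9, and the 5 sites held at most 26 reads. At the median local background of MYC intervals, the least number of reads that could be listed was 15 in C4-2B against 12 in C4-2BER.

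Position within the MYC window was then examined. PVT1 held 46 C4-2B intervals and 32 C4-2BER intervals, with 17 C4-2B-only (37.0%, 24.5 to 51.4) and 2 C4-2BER-only (6.25%, 1.73 to 20.1). Over the whole lists these shares were 41.9% and 22.4% of distal intervals, so PVT1 had no excess of C4-2B-only sites. All 28 shared pairs inside PVT1 had ratios below 1, with a median of 0.502, and 14 of them were at most 0.5. Of all distal pairs, 67.1% were below 1 and 16.7% at most 0.5. From 100 to 200 kb downstream there were 21 C4-2B intervals, 11 of them C4-2B-only, and 11 C4-2BER intervals. Of the 100 kb stretches of the window, this one held the most C4-2B intervals and the most C4-2B-only ones. Its C4-2B-only count is to be read beside the distal share of 41.9%. Upstream of MYC, C4-2B had 28 intervals, promoter intervals included, and C4-2BER had 15. Of the 28, 16 were C4-2B-only (57.1%, 39.1 to 73.5). This interval began above the share of 37.7% over all C4-2B intervals but held that of 41.9% over distal ones. Fewer sites were thus listed in C4-2BER on both sides of the gene, as over the whole lists (118728 against 149676).

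The distal MYCN sites with the highest −log10 p in C4-2B all held fewer reads in C4-2BER. They were chosen for their strength in C4-2B, which favours lower values in the other list. Of all distal pairs, 67.1% had a ratio below 1. The site 360 kb upstream, chr2:15580277-15580954, held 97 reads in C4-2B against 37 in C4-2BER, a ratio of 0.456. The site 311 kb downstream held 64 and 23 reads, a ratio of 0.430. The site in the noncoding gene GACAT3, 139 kb downstream at chr2:16079270-16080086 and printed above, held 68 and 17 reads, a ratio of 0.299 (0.165 to 0.515). The nearest of these sites, 24.6 kb downstream, held 61 and 33 reads, a ratio of 0.647, and became the strongest distal site of MYCN in C4-2BER. The site 91.4 kb downstream held 56 and 27 reads.

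Sites in 1 line only at MYCN were stronger in C4-2B. The C4-2B-only site 174 kb upstream, chr2:15765974-15766919, held 68 reads at percentile 75.7. The next ones, 101 kb downstream and 369 kb upstream, held 39 and 32 reads. The strongest C4-2BER-only site, 203 kb downstream at chr2:16142964-16143341, held 25 reads at percentile 64.7, and those 192 kb and 394 kb upstream held 18 and 12. The highest ratio of the 19 shared distal pairs was at 341 kb downstream, chr2:16281893-16282158. There, 20 reads in C4-2B stood against 31 in C4-2BER, a ratio of 1.85 (1.02 to 3.43). It was the 1 pair of the 19 (5.26%) with a counting interval wholly above 1, near the share of 4.06% over all distal pairs. Ranks fell most 210 kb upstream, with 32 and 12 reads, and rose most 363 kb downstream, with 13 and 18 reads.

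The strongest distal C4-2B sites of MYCL differed in ratio, from 0.241 to 0.826. Over all its shared distal pairs the quartiles were 0.617 and 0.940, against 0.592 and 1.10 over the whole lists. The TRIT1 intron site 24.7 kb downstream, chr1:39877007-39877886, held 129 reads in C4-2B against 26 in C4-2BER, a ratio of 0.241 (0.152 to 0.370), the lowest of all pairs at the 3 genes. TRIT1 encodes a tRNA-modifying enzyme. The MFSD2A intron site 58.7 kb upstream held 135 and 52 reads, a ratio of 0.461, and the site 357 kb downstream held 104 and 32, a ratio of 0.368. In contrast, the site 84.4 kb downstream held 121 and 82 reads, a ratio of 0.811, and the site 17.8 kb upstream held 84 and 58, a ratio of 0.826. Both were among the 5 strongest distal MYCL sites of C4-2BER.

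The strongest C4-2B-only distal site at MYCL was in a CAP1 intron, 145 kb upstream, with 51 reads at percentile 81.4. Distal C4-2B-only sites 256 kb and 151 kb downstream held 59 and 44 reads. A promoter interval of SMAP2, chr1:40391469-40392183, was also C4-2B-only and ranked higher, with 75 reads at percentile 86.6. SMAP2 had another promoter interval in both lines. The strongest C4-2BER-only distal site was in HEYL, 269 kb downstream at chr1:39632849-39633356, with 41 reads at percentile 79.6. HEYL encodes a Notch-responsive transcriptional repressor. The HEYL promoter itself, chr1:39639515-39640178, was also C4-2BER-only, with 68 reads at percentile 89.5. HEYL was the single protein-coding gene of the 3 windows with a promoter interval in C4-2BER only. Of all 19689 protein-coding genes, 667 had one in C4-2BER only. Ranks at MYCL fell most 129 kb upstream, with 45 and 14 reads, and rose most 56.0 kb downstream, with 17 and 16 reads.

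The local background at these sites moved with the reads at MYC. The background is counted in 10000 bp around the summit and so includes the reads of the sites themselves. Its median over MYC intervals, in multiples of the floor, was 2.69 in C4-2B against 2.30 in C4-2BER, against 1.36 in both whole lists. Downstream of MYC it was 3.55 and 2.41, and upstream 1.15 and 1.01. Over the 42 shared distal pairs, the median ratio of the background between the lines was 0.598, close to that of the reads, 0.595. At MYCN the medians were 1.01 in both lines, and at MYCL 2.38 and 2.19, an order that turned with flanks of 250 kb (1.92 and 1.98) and 1000 kb (1.98 and 2.09). Copy number was not measured, and its part in these levels was not tested.

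**Figure D4:**
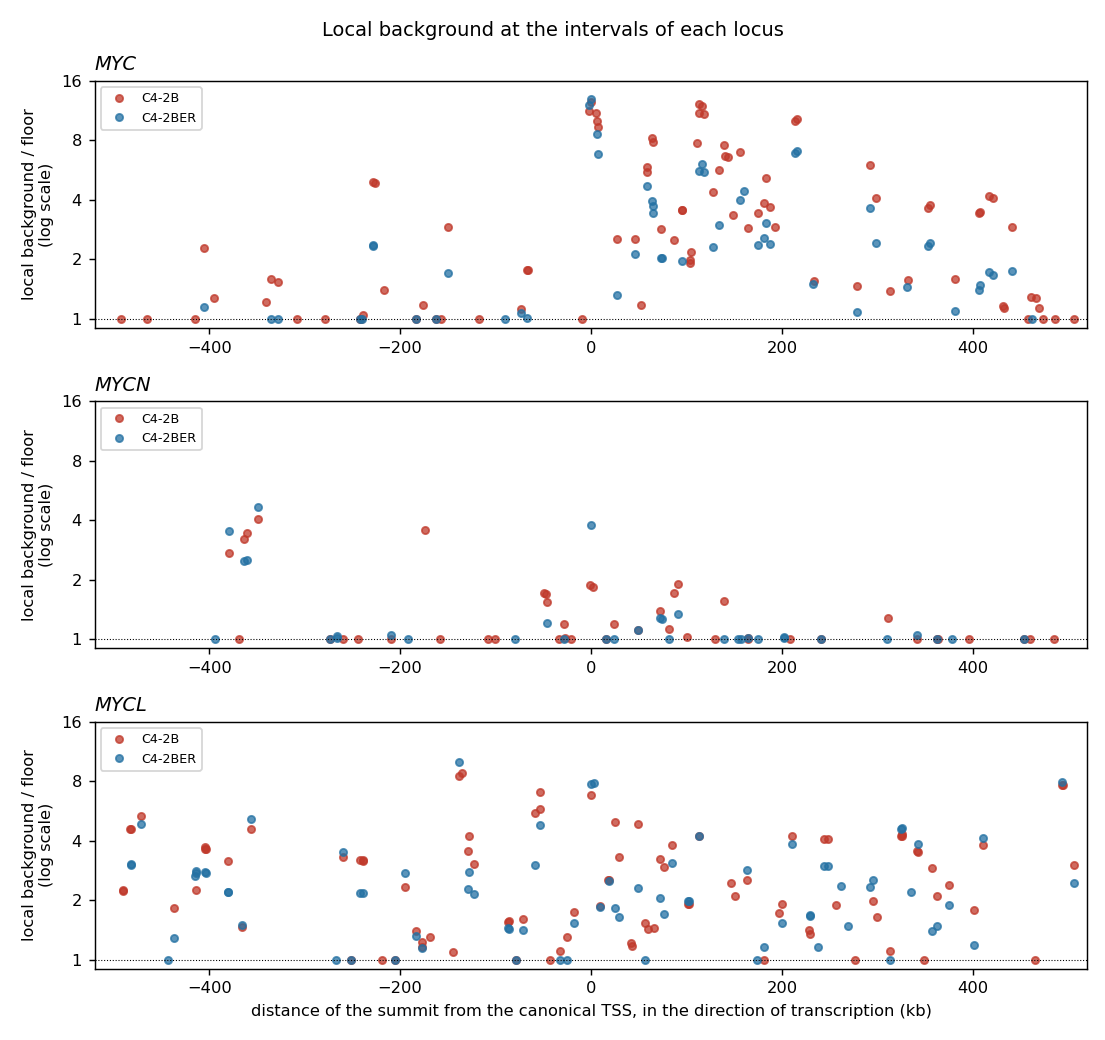
Local background over the floor, on a log2 axis, for each interval of C4-2B (red) and C4-2BER (blue) by distance from the canonical TSS in kb. The dotted line is the floor; downstream of MYC the medians are 3.55 in C4-2B against 2.41 in C4-2BER, while at MYCN both medians are 1.01.

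Other genes in the windows were then examined. POU5F1B, a retrogene of the stem cell factor gene POU5F1 and the one other protein-coding gene with a start in the MYC window, had a promoter interval of 44 reads in C4-2B against 11 in C4-2BER, a ratio of 0.299 (0.139 to 0.589). Its percentile was 70.9 in C4-2B against 15.0 in C4-2BER. The noncoding gene PCAT1, known for its expression in prostate cancer, had promoter intervals in C4-2B only, the strongest with 38 reads. CCAT2 held 29 reads in C4-2B against 17 in C4-2BER, CASC8 had no promoter interval in either line, and CASC11 shares the MYC promoter interval.

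At MYCN, the promoters of NBAS and DDX1 held 68 and 126 reads in C4-2B, against 70 and 127 in C4-2BER. The noncoding gene MYCNUT had a promoter interval in C4-2B only, with 32 reads, and MYCNOS shares the MYCN promoter interval. At MYCL, 16 of 19 protein-coding genes, MYCL included, had a promoter interval in both lines, HEYL had one in C4-2BER only, and TMCO2 and OXCT2 had none.

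The partners and regulators of MYC proteins were compared at their promoters. The MAX network list held 10 genes for MAX, its other partners of the MXD, MNT and MGA type, which compete with MYC, and the related MLX branch. The other list held 6 genes for enzymes and cofactors that act on MYC proteins, among them the kinase AURKA and the ubiquitin ligase subunit FBXW7. All 10 and all 6 had a promoter interval in both lines. The ratios had a median of 1.10 (1.01 to 1.36) in the MAX network and 1.03 (0.859 to 1.32) among regulators, against 1.10 over all promoters, and 0 of the genes reached a ratio of 0.5 or 2, which 1.39% and 3.06% of all genes open in both lines did. The rank rose most for MLX, from percentile 46.2 to 71.8 with 58 and 66 reads. It fell most for TRRAP, a cofactor of histone acetylation, from 91.0 to 86.1 with 117 and 84 reads.

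Finally, consensus motifs within 100 bp of distal summits were counted on both strands. The positions are those of the deposited summits, and the calling used a shift of 100 bp whose sign could not be checked. The E-box CACGTG, the letters bound by MYC and MAX, was found at 0 of 84 C4-2B and 0 of 50 C4-2BER distal summits of MYC, and at 0 of 40 and 0 of 31 at MYCN. At MYCL it was found at 3 of 66 and 2 of 53, and over the whole lists at 3.67% and 3.90% of distal summits. The E-box CAGCTG, bound by neurogenic and other helix-loop-helix factors, was found at 16 (19.0%) and 10 (20.0%) at MYC, 8 (20.0%) and 6 (19.4%) at MYCN and 15 (22.7%) and 12 (22.6%) at MYCL. The whole lists held it at 13.7% and 14.0%, and it was in 14.0% of 35116 RefSeq promoters, in the 250 bases before the start.

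The CTCF core motif was found at 0 distal summits of MYC and MYCN in either line. At MYCL it was found at 7 in C4-2B (10.6%, 5.23 to 20.3) and 10 in C4-2BER (18.9%, 10.6 to 31.4), against 6.01% and 8.11% over the whole lists. Forkhead matches were at 16 of 84 C4-2B sites and 8 of 50 C4-2BER sites of MYC, 10 of 40 and 4 of 31 at MYCN, and 12 of 66 and 6 of 53 at MYCL. The whole lists held 18.8% and 15.0%. AGATAA, the match for the GATA family, was found at 9 and 7 sites of MYC, 6 and 1 of MYCN and 11 and 6 of MYCL, against 13.1% and 11.3%. AP-1 (TGACTCA) was matched at 7 sites of MYC in each line, 2 and 1 of MYCN and 4 and 2 of MYCL, against 8.06% and 7.52%.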

How the data were processed

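ATAC-seq of C4-2B and C4-2BER (2 libraries each) was deposited as 1 macs2 peak list per line in hg38. Per the study's methods, reads were aligned with Bowtie2, filtered at a mapping quality of 10, freed of duplicates with Picard and merged over replicates before calling with an extension of 200 bp and a stated shift of 100. The sign of the shift could not be checked from the lists, so summit distances, motif windows and printed windows may be offset. The labels name the same tools and bedtools 2.17, and the macs2 version is not given in the sources used here. The deposited fold is a ratio of summit reads to local background, each raised by 1. The −log10 of p and of q at each summit were deposited as macs2 gave them, and the deposited score restates the q-value and was not used. The last deposited column, of another kind, is the summit offset.

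Reads and background were recovered as the whole number of reads that solves fold and −log10 p together. The largest error was 0.000259 in −log10 p, and 100% of 3371 simulated summits were recovered. The floors give depths of 30.2 M and 25.2 M reads if macs2 used a genome of 2700000000 bp. No summit below 8 reads (C4-2B) or 7 reads (C4-2BER) is listed.

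Rows that share an interval were counted once, with the summit of highest −log10 p. Pairs are intervals that are each other's largest overlap. Genes came from GENCODE release 44 (Python 3.11.15, pandas 2.3.3, scipy 1.17.1, pysam 0.24.0). Wilson intervals cover counting error only, and no p-value was computed. Named are the 3 genes, their promoters, neighbours with a promoter interval in 1 line only, listed noncoding genes, the 5 strongest and 3 strongest line-only distal sites per locus and list, and the largest rank changes. Sites named for an extreme ratio, the lowest or highest, inside the genes or just past MYC, and the markers of cell type, were chosen after their values were seen. Sites named as the strongest of a line were chosen by their values in that line, which favours lower values in the other. The members, lists and motifs were chosen with earlier results of these data known. Results for some listed genes, 1 motif and 1 sequence were left out. The alternatives were stricter lists, equal numbers, scaled depth, other overlap rules, each summit counted, other windows, other promoter widths, 1 TSS per gene and rank by fold.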

Additional observations from a re-analysis of the deposited data

How the results depend on the processing

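Of 69 comparisons of the lines over the alternatives, the order turned in 5 and did not in 64, ties included. With equal numbers, the densities at MYCN were 3.18 (C4-2B) and 3.38 (C4-2BER) and the line-only shares 34.4% and 38.2%. With flanks of 250 kb and 1000 kb, the MYCL background was higher in C4-2BER (1.98 and 2.09) than in C4-2B (1.92 and 1.98). Ranked by fold, the MYCN promoter went from percentile 62.4 to 59.4. In lists restricted to a −log10 q of 5 or more, the C4-2BER-only share at MYCN moved to 18.2% and its density to 2.19 intervals per 100 kb, where the whole-list share was 17.4%. With at least 10, the C4-2BER-only share moved to 0% at MYC, 17.6% at MYCN and 8.62% at MYCL, the density to 2.68 per 100 kb at MYC in C4-2BER and to 2.48 (C4-2B) and 1.69 (C4-2BER) at MYCN, and the background at MYCN in C4-2BER to 1.11 times the floor. With lists of equal number, the C4-2B-only share moved to 35.4% at MYC and 34.4% at MYCN, against 29.1% over the whole list. The C4-2BER-only share at MYC moved to 30.2% with 50% reciprocal overlap and to 20.8% with summits within 200 bp, against 32.1% and 26.7% over the whole list. With strong intervals set against all intervals of the other list, the C4-2B-only shares moved to 32.2% (MYC), 20.0% (MYCN) and 17.6% (MYCL), and the C4-2BER-only shares to 0%, 11.8% and 8.62%, against whole-list values of 22.2% and 7.31%. With 250 kb flanks, the background at MYC in C4-2B moved to 3.55 and the C4-2BER-only share at MYCL to 9.30%. With 1000 kb flanks, the background at MYC in C4-2BER moved to 1.67. The cause of these moves was not tested beyond the change of list or window itself. Rank by fold moved the promoters of MYC to percentiles 18.9 and 33.8 and of MYCL to 80.6 and 86.5. The other 107 values for comparisons and 8 for single promoters or lists moved by less than their counting interval or stated spread. No paired analysis was possible because replicates were merged before peaks were called, and for the same reason no replicate could be left out.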
